A study of Solanum lycopersicum with 6 samples.

Results

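Abscisic acid is the plant hormone associated with dormancy of seeds and buds and with the response to water shortage. The genes described here are known for successive steps of its turnover and response, and their transcripts were compared in dormant axillary buds of tomato. They are 10 gene IDs chosen by name: NCED1 and NCED2, 3 CYP707A genes, 3 clade A protein phosphatases 2C (PP2C), the transcription factor gene AREB1 and the dehydrin gene TAS14. The names come with the choice of the genes, since the deposited tables list IDs alone. The choice was made with earlier results of these data known. Counts of the 10 beside all detected genes are therefore no independent check. All 10 were found among the 34075 IDs of both tables. All 10 also had a log fold change other than 0 in both, as did 24920 and 25329 of all IDs in the tables for miR156-OE and rSBP15.

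RNA sequencing was done on buds of 3 genotypes, with 2 samples each, taken from plants 25 days after germination. The genotypes were miR156-OE (titled 156OE), known from the study as an overexpressor of the microRNA miR156, rSBP15 (titled rSBP15OE), known from the study as a line with a form of the SBP-box gene SBP15 that miR156 does not recognise, and the wild type MT. All 3 share the cultivar MT, known as Micro-Tom, a dwarf tomato. A sample pooled about 20 buds of 4 to 5 plants, and nothing in the labels says whether the 2 samples of a genotype were grown apart, so p-values measure only the spread between these samples. The labels give neither the promoter of the transgenes nor the number of independent lines.

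As background, NCED enzymes cleave carotenoids in the step that limits abscisic acid synthesis, and CYP707A enzymes hydroxylate the hormone, which starts its breakdown. When the hormone binds its receptors, these inhibit the clade A PP2C phosphatases. The phosphatases otherwise hold back SnRK2 kinases, which activate AREB/ABF transcription factors. In Arabidopsis the genes for these phosphatases are themselves induced by the hormone, so their transcripts are often read together with those of late targets such as dehydrins, proteins that protect cells during drying.

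The authors' deposited tables compare each line with MT and list, for every gene, a log fold change of unstated base and a p-value. They hold no value per library, so levels, depth and single replicates are not shown here. The standard error (SE) beside each log fold change was recovered from the p-value. It also bounds the gap between the 2 libraries of a genotype and, for most genes, shows whether the libraries of 2 genotypes overlapped. A gene is called when its Benjamini-Hochberg adjusted p over all detected genes (those with a log fold change other than 0) is under 0.05. Both comparisons use the same MT libraries, so their values are set side by side and are not independent. In bulk buds, fewer cells of a type and less RNA per cell cannot be told apart.

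In rSBP15 buds, 9 of the 10 genes had positive log fold changes against MT, and 6 of them stood at 0.78 or more: NCED1, all 3 PP2C genes, AREB1 and TAS14. A positive log fold change of at least 0.5 was listed for 1618 of 25329 detected genes (6.39%) in the authors' deposited table. Of the 10 genes 6 did. The median log fold change of the 10 was 0.812, against 0.000527 over all detected genes. By the test, however, 1 of the 10 was called, beside 5.58% of all detected genes, and this was a CYP707A gene with a very small change. At an unadjusted p under 0.05, 7 of the 10 were higher in rSBP15, beside 17.1% of all detected genes. The number called depended on how the variance was estimated. With limma's variance prior refitted on detected genes alone it was 2 of 10 (NCED1 and the PP2C gene Solyc05g052980), beside 14.7% of all detected genes. In a joint fit of all 6 libraries, whose variance the tables give only within limits, it was 2 of 10 at the upper limit (again NCED1 and Solyc05g052980), beside 11.1%, and 7 of 10 at the lower limit, beside 19.5%.

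In miR156-OE buds the log fold changes of the same genes against MT ran between -0.63 (NCED1) and 0.15, with intervals of widely differing width. Of the 10 genes 8 had negative and 2 positive log fold changes, with a median of -0.0961, against -0.000594 over all detected genes. The called genes numbered 0 of 10, beside 0.0201% of all detected genes. At an unadjusted p under 0.05, 2 of the 10, both NCED genes, were lower in miR156-OE, beside 7.3% of all detected genes. A log fold change of -0.5 or below was listed for NCED1 alone among the 10, beside 1.28% of all detected genes.

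**Figure D1:**
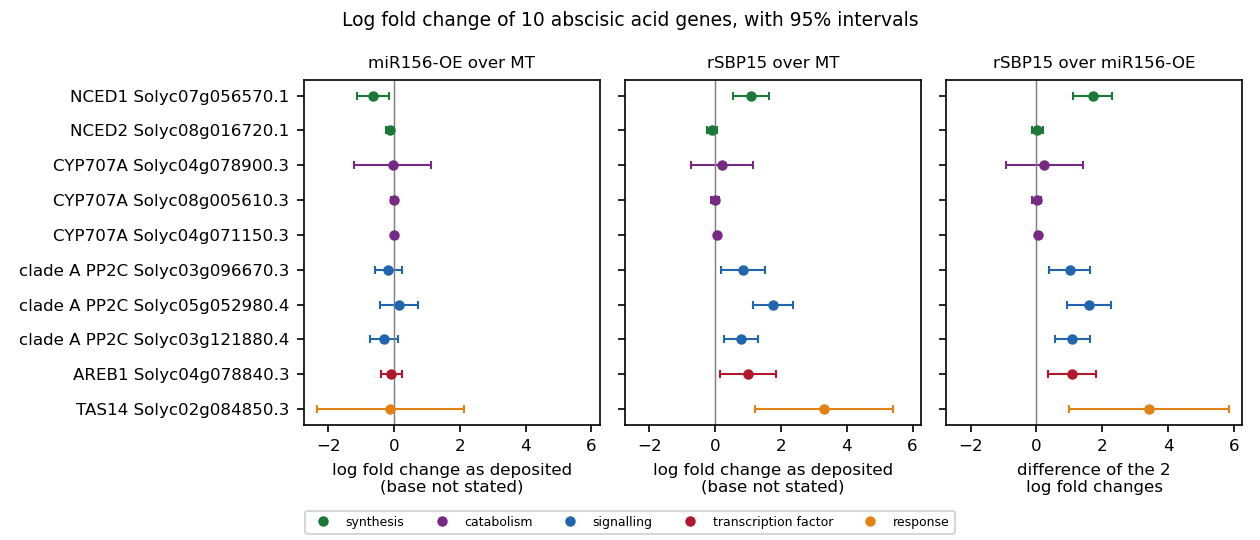
Log fold changes of the 10 genes (horizontal axis, as deposited, base not stated) in miR156-OE over MT, in rSBP15 over MT and as the difference of both, with 95% intervals as bars and colours for the role of each gene. In rSBP15 over MT, NCED1, the PP2C genes, AREB1 and TAS14 sit between 0.78 and 3.31 with intervals above 0, while NCED2 and the CYP707A genes sit between -0.10 and 0.21.

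NCED1 was the synthesis gene with the largest log fold changes, and they had opposite signs in the lines. In the authors' deposited tables its log fold change was -0.63 in miR156-OE against MT (SE 0.142, 95% interval -1.12 to -0.14) and 1.08 in rSBP15 against MT (SE 0.158, 95% interval 0.53 to 1.62). The libraries of each line did not overlap those of MT, below them in miR156-OE and above them in rSBP15. In either direction, 37.9% of all detected genes in miR156-OE and 62.3% in rSBP15 did not overlap MT. The 2 rSBP15 libraries differed from each other by 0.141 to 0.317, and the 2 libraries of miR156-OE or of MT by at most 0.284. The adjusted p-values were 0.318 and 0.0765 (limma-type test), so neither was called. A log fold change lower than that of NCED1 in miR156-OE was listed for 196 of 24920 genes, and one higher than that in rSBP15 for 399 of 25329.

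NCED2, which codes for a second enzyme of the same step, was at -0.13 in miR156-OE (SE 0.0323, adjusted p 0.341) and at -0.10 in rSBP15 (SE 0.0413, adjusted p 0.218) in the authors' deposited tables. In both lines its libraries lay below those of MT without overlap, by small amounts. Of all detected genes, 19.6% in miR156-OE and 30.7% in rSBP15 lay below MT without overlap, so this is common in both tables. The NCED genes therefore had opposite signs in rSBP15 and the same sign in miR156-OE.

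The 3 CYP707A genes, which start the breakdown of the hormone, had log fold changes between -0.04 and 0.21 in the authors' deposited tables. Solyc04g078900 was at -0.04 in miR156-OE (95% interval -1.21 to 1.13) and at 0.21 in rSBP15 (95% interval -0.73 to 1.14). Its libraries overlapped those of MT in both comparisons, and the 2 miR156-OE libraries alone differed by 0.399 to 0.675. For this gene the intervals reach beyond the log fold change of NCED1 in rSBP15, so a change of that size cannot be told from 0. Solyc08g005610 was at -0.0073 in miR156-OE and 0.0011 in rSBP15, with intervals within 0.13 of 0 on this scale and overlapping libraries in both.

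Solyc04g071150, the third CYP707A gene, was the member called in rSBP15. It rose in rSBP15 by 0.05 on the deposited log scale in the authors' deposited table (SE 0.00018, adjusted p 0.0219, limma-type test). The 2 MT libraries differed by at most 0.00036 for this gene, as did the 2 rSBP15 libraries, while the 2 miR156-OE libraries differed by about 0.00388. With 8083 genes above it in log fold change, its rise stands out by the closeness of the replicates and not by its size. The call was lost with the prior refitted on detected genes alone (adjusted p 0.119) and in the joint fit at its upper variance limit (adjusted p 0.0867). In miR156-OE it was at 0.0022 (adjusted p 0.724). For values this close to 0 the tables do not tell a low level from a small change.

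The 3 clade A PP2C genes, negative regulators of the signal, had log fold changes of 0.78 to 1.75 in rSBP15. Solyc05g052980 had the highest, 1.75 in the authors' deposited table (SE 0.178, 95% interval 1.13 to 2.36). Its rSBP15 libraries lay above those of MT, beside 62.3% of all detected genes without overlap in either direction (30.7% of all below MT). In log fold change 101 of 25329 genes were higher. Its adjusted p of 0.0586 was just short of the threshold (limma-type test). It passed in 3 of 5 alternative forms of the test, among them the test with the refitted prior (adjusted p 0.0287). In miR156-OE it was at 0.15 (SE 0.171, adjusted p 0.741) and its libraries overlapped those of MT.

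Solyc03g096670 and Solyc03g121880, both on chromosome 3 by their IDs, were at 0.84 (SE 0.196) and 0.78 (SE 0.151) in rSBP15 in the authors' deposited table. Their adjusted p-values were 0.119 and 0.0983 (limma-type test), and the rSBP15 libraries of both lay above those of MT. For Solyc03g096670 the 2 rSBP15 libraries differed by 0.311 to 0.391, more than the 0.237 that the MT libraries could differ by. In miR156-OE the log fold changes in the authors' deposited table were negative, -0.18 (SE 0.118, adjusted p 0.635) and -0.31 (SE 0.124, adjusted p 0.471), and the libraries of both lay below those of MT. These genes and NCED1 thus lay below MT in miR156-OE and above it in rSBP15 without overlap, a pattern found in 5.53% of the 24592 genes detected in both tables, which share the MT libraries. In miR156-OE, however, the 95% intervals of Solyc03g096670 (-0.59 to 0.23) and Solyc03g121880 (-0.74 to 0.12) include 0. Lying outside the MT range on either side was common, at 37.9% of all detected genes in miR156-OE and 62.3% in rSBP15.

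AREB1, a bZIP transcription factor of the AREB/ABF group, was at 1.00 in rSBP15 in the authors' deposited table (SE 0.250, 95% interval 0.14 to 1.86, adjusted p 0.128, limma-type test). Its rSBP15 libraries were both above the MT libraries, beside 62.3% of all detected genes without overlap in either direction (30.7% of all below MT). They were also 0.466 to 0.499 apart, against at most 0.180 between the MT libraries. Most of its SE therefore came from the rSBP15 samples. In miR156-OE it was at -0.08 (SE 0.0901, adjusted p 0.732), with libraries that overlapped those of MT. In the RefSeq annotation (assembly SLM_r2.1) AREB1 and a CYP707A gene with the symbol CYP707A1 lie on chromosome 4 with 5 protein-coding genes between them. Both CYP707A IDs on chromosome 4 had log fold changes below that of AREB1 in rSBP15, at 0.21 and 0.05. The 95% interval of Solyc04g078900 (-0.73 to 1.14) includes the AREB1 value.

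TAS14, a dehydrin gene of tomato that is induced by abscisic acid and by drying, had the largest log fold change of the 10. It was at 3.31 in rSBP15 in the authors' deposited table (SE 0.611, 95% interval 1.21 to 5.41), with 6 of 25329 detected genes above it. The rSBP15 libraries lay above the MT libraries, beside 62.3% of all detected genes without overlap in either direction (30.7% of all below MT). The 2 libraries of either genotype differed by at most 1.22. The adjusted p was 0.0945 (limma-type test), since the spread was large as well. In miR156-OE it was at -0.11 (SE 0.644, adjusted p 0.958, 95% interval -2.34 to 2.12). There the libraries overlapped, with a gap of 0.402 to 1.29 between the miR156-OE libraries. An interval this wide does not show that TAS14 was alike in miR156-OE and MT.

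If every library's value was 0 or above, as a log of a level plus 1 would be, the log fold changes set lower limits to the levels. The mean of TAS14 in rSBP15 was then at least 3.42 on the deposited log scale, and that of NCED1 was at least 1.71 in rSBP15 and at least 0.63 in MT. All 737 genes at 0 in the miR156-OE table alone were above 0 in the rSBP15 table, which such values would give, but the scale is not stated.

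**Figure D2:**
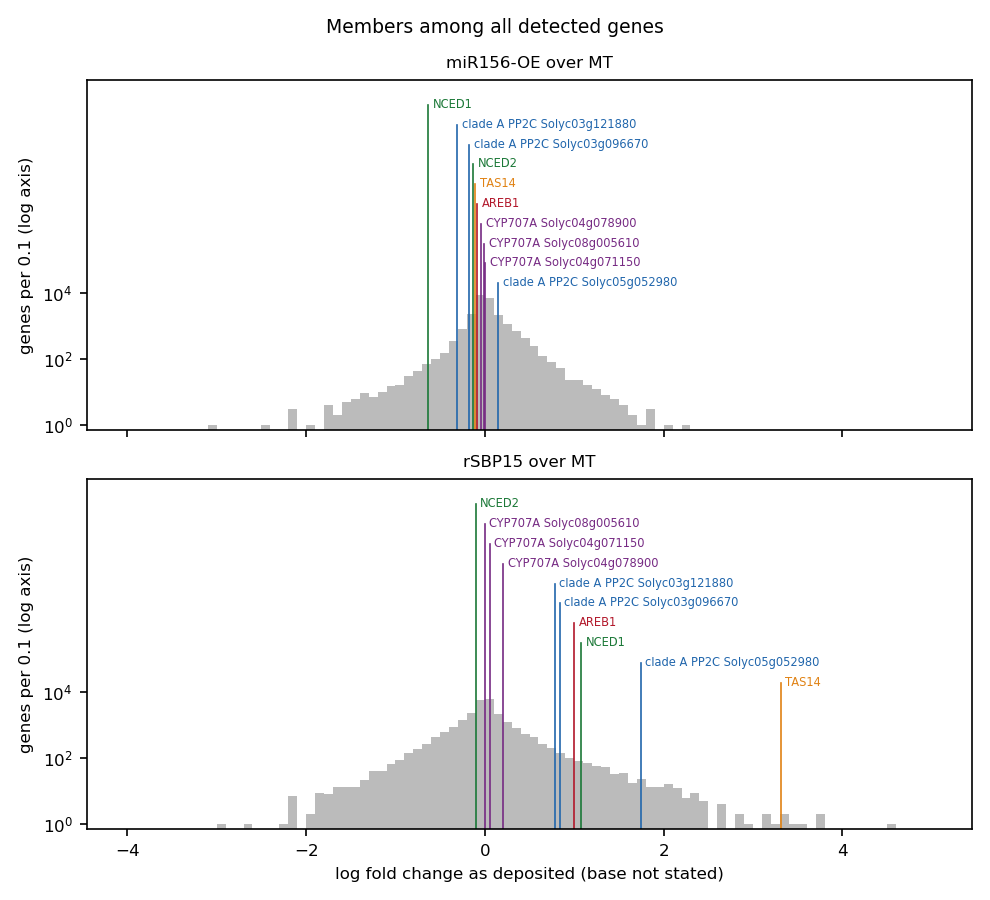
Number of detected genes per 0.1 of log fold change (vertical log axis) in miR156-OE over MT (above) and rSBP15 over MT (below), with a coloured line at each of the 10 genes; line heights only separate the labels. In rSBP15, TAS14 at 3.31 lies in the extreme upper tail and 5 others lie between 0.78 and 1.75, while in miR156-OE the members lie between -0.63 and 0.15.

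The difference between the lines was tested as the log fold change of rSBP15 over MT minus that of miR156-OE over MT. The main variance, the sum of both recovered variances, holds the spread of the MT libraries and is only an upper limit. All 10 differences were positive, with a median of 1.05, against 0.00163 over the 25657 genes detected in either table. With the variance at its upper limit, 0 of 10 were called, beside 0% of all genes, and 6 of 10 had an unadjusted p under 0.05 and were higher in rSBP15, beside 11.1% of all genes. In the joint fit of all 6 libraries at the upper limit of its variance, 6 of 10 were called as higher in rSBP15, beside 7.39% of all genes (14.4% in either direction). These were NCED1, the 3 PP2C genes, AREB1 and TAS14. The joint fit takes 1 variance for all 3 genotypes, with 3 residual degrees of freedom. Its upper limit, reached only if the MT libraries did not differ, is below the variance of the test that called 0. For AREB1 the rSBP15 libraries were 0.466 to 0.499 apart, and the miR156-OE libraries at most 0.180. With the mean of both variances 3 of 10 were called, beside 7.77% of all genes, and in the joint fit at the lower limit 7 of 10 were, beside 23.2%.

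TAS14 differed by 3.42 (SE at most 0.887), and 1 of 25657 genes had a higher difference. NCED1 differed by 1.71 (SE at most 0.212, 95% interval 1.13 to 2.29). Its adjusted p was 0.105 in the test with the summed variance and 0.0151 in the joint fit, both at the upper limit (limma-type tests). The PP2C gene Solyc05g052980 differed by 1.60 (SE at most 0.247), with 0.113 and 0.0206 in the same tests. For Solyc03g121880, Solyc03g096670 and AREB1 the differences were 1.09, 1.01 and 1.08. Their adjusted p-values were 0.124, 0.146 and 0.156 in the test with the summed variance, and 0.0256, 0.0380 and 0.0438 in the joint fit. For TAS14 they were 0.163 and 0.0484 in the same tests. NCED2 and the CYP707A genes differed by 0.0083 to 0.25, and 0 of these 4 were called in the joint fit at the upper limit.

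**Figure D3:**
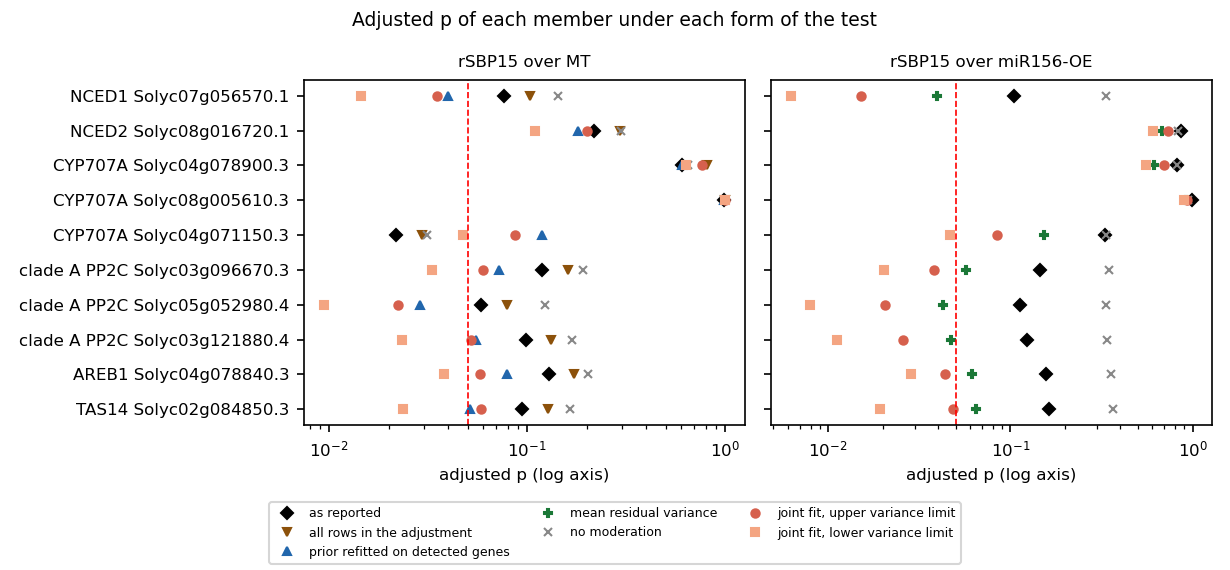
Adjusted p of each of the 10 genes (horizontal log axis) in rSBP15 over MT and rSBP15 over miR156-OE under each form of the test, with the threshold of 0.05 as a dashed line. The label "as reported" marks the main form of the test in this report. For NCED1 and Solyc05g052980 its values (0.0765 and 0.0586 over MT) lie to the right of the line. Those of the refitted and joint fits lie to its left, while NCED2, Solyc04g078900 and Solyc08g005610 stay to its right throughout.

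A wider list of 28 further IDs was counted in the same way. It was drawn up from general knowledge of the tomato pathway with earlier results of these data known, so it is no independent check. The IDs are not annotated in the tables or the RefSeq table, so counts are given and no ID is named. All 28 were in the tables and 26 were detected in each. In rSBP15, 2 of the 26 were called, both entered as receptors and both higher, with log fold changes of 0.15 and 0.41, beside 5.58% of all detected genes, and 13 had an unadjusted p under 0.05, beside 33.3%, of which 11 were higher, beside 17.1%. The median log fold change was 0.186, against 0.000527 over all detected genes. In miR156-OE 0 of the 26 were called, 2 had an unadjusted p under 0.05, beside 13.2% of all detected genes, and the median was -0.00942.

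Among the classes of the wider list, the 6 IDs entered as further clade A phosphatases had the highest median log fold change of the classes with more than 1 ID in rSBP15, 0.768, with values from -0.29 to 1.44. Of these 6, 4 were positive, beside 12798 of 25329 detected genes. At 0.5 or more there were 3, beside 6.39% of all detected genes, and 0 were called, beside 5.58%. In miR156-OE the same 6 ranged from -0.21 to 0.19. The 12 detected IDs entered as receptors, which are known to bind the hormone, ranged from -0.09 to 0.74 in rSBP15, with 7 positive and 5 negative. The single kinase ID was at 0.55 in rSBP15 and -0.03 in miR156-OE. Of the 4 synthesis IDs 0 were called in either line, beside 5.58% of all detected genes in rSBP15 and 0.0201% in miR156-OE.

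**Figure D4:**
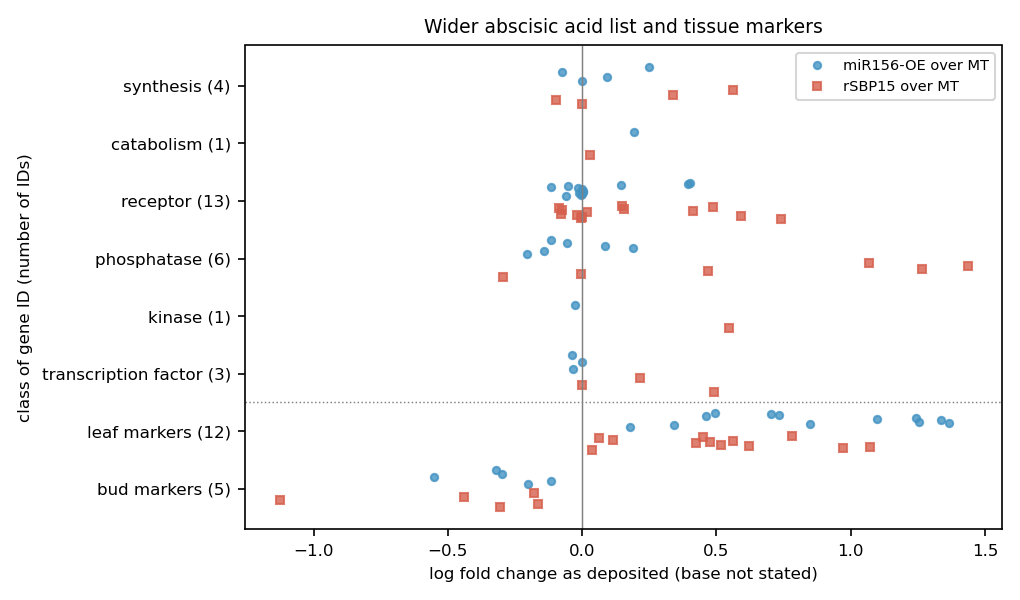
Log fold changes (horizontal axis, as deposited, base not stated) of the 28 further IDs by class, and below the dotted line of 12 leaf and 5 bud marker IDs, in miR156-OE over MT (circles) and rSBP15 over MT (squares). In rSBP15 the phosphatase IDs reach 1.44, while in miR156-OE they stay between -0.21 and 0.19.

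Markers of the tissue were read as counts from the same tables, which hold no levels. All 5 IDs listed as bud and boundary genes were detected, and in both lines all 5 had negative log fold changes. Of all detected genes, 12635 of 24920 in miR156-OE and 12531 of 25329 in rSBP15 were negative. The median of the 5 was -0.298 in miR156-OE and -0.306 in rSBP15. These values do not measure the amount of bud tissue. Of these 5, 2 were called in rSBP15, beside 5.58% of all detected genes, and 0 in miR156-OE, beside 0.0201%. All 12 IDs listed as leaf photosynthesis genes had positive log fold changes in both lines. Of all detected genes, 12285 of 24920 in miR156-OE and 12798 of 25329 in rSBP15 were positive. Many of the 12 lie close in number, from Solyc02g070940 to Solyc02g071030, so they need not be separate markers. The 12 ranged over 0.18 to 1.37 in miR156-OE (median 0.79) and over 0.04 to 1.07 in rSBP15 (median 0.496). In either line 0 of 12 were called, beside 0.0201% of all detected genes in miR156-OE and 5.58% in rSBP15. At an unadjusted p under 0.05, 7 of the 12 leaf IDs were higher in miR156-OE, beside 5.94% of all detected genes, and 3 were in rSBP15, beside 17.1%. At the same threshold 4 of the 5 bud IDs were lower in miR156-OE, beside 7.3%, and 3 were in rSBP15, beside 16.2%. Their part in the results was not tested.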

How the data were processed

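RNA was extracted with TRIzol from frozen dormant buds, treated with DNase, selected for poly(A) and made into stranded TruSeq libraries, per the labels' protocols. HISAT2 and StringTie are named in the submitters' processing notes. The genome build, expression unit, filter and test are not given in the sources used here. The authors deposited 2 tables of a log fold change, whose base is not stated, and a p-value per gene, per the file headers. Depth is unknown, so no interval that needs it is given.

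The p-values were matched by a limma fit of 2 libraries against 2 over all rows: 1224 genes in the miR156-OE table and 1262 in the rSBP15 table lay on the curve of genes detected in 1 library, with 0.347 and 0.360 prior degrees of freedom and prior variances of 1.94e-06 and 1.92e-06. limma 3.58.1 (R 4.3.3) returned the same priors from the recovered variances. These give each gene's SE, which for 2 against 2 libraries equals the residual SD, and its moderated 95% interval. Libraries of 1 genotype differ by at most 2 SE. Genotypes were taken not to overlap where the log fold change exceeded the SE times the square root of 2.

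For rSBP15 over miR156-OE the variance was the sum of both recovered variances, the largest possible, with the moderation refitted. The joint fit of all 6 libraries was run at the largest and smallest variance that both tables allow. The recovery was tested on simulated data. P-values were adjusted over genes with a log fold change other than 0, at 0.05. All 10 genes were named whatever their result. The genes and lists were chosen with earlier results of these data known. No ID matched the RefSeq table of 41476 genes. NCED1, NCED2, AREB1 and TAS14 were found there by symbol, each on the chromosome in its ID. RefSeq positions served only to count the genes between neighbours. No sequence was used.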

Additional observations from a re-analysis of the deposited data

Results flagged for a closer look

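For 3 genes the libraries of miR156-OE lay below those of MT and the libraries of rSBP15 above them, a pattern found in 5.53% of the genes detected in both tables. For NCED1 (Solyc07g056570) the difference of rSBP15 over miR156-OE was 1.71. Its adjusted p was 0.105 in the main form of the limma-type test, derived here from both deposited tables. Over 4 alternative forms it was 0.00622 to 0.334. For the PP2C genes Solyc03g121880 and Solyc03g096670 the difference was 1.09 and 1.01, with adjusted p-values of 0.124 and 0.146 in the main form. Over the alternative forms these were 0.011 to 0.34 and 0.020 to 0.35. All 3 differences between the lines were called in the joint fit of the 6 libraries at its upper variance limit. In miR156-OE over MT the 3 genes were not called in the main form, beside 0.0201% of all detected genes. There each was called in 0 of 5 alternative forms. The comparisons share the MT libraries.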

How the results depend on the processing

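No paired analysis was possible because values of single libraries are not in the tables used here, so leaving out a replicate, other normalizations, count filters and pseudocounts were also not run. Each alternative changes the test alone, so no direction changed. Members called in miR156-OE over MT numbered 0 under every alternative run, except 2 at an unadjusted p under 0.05. In rSBP15 over MT, 1 in the main form of the test became 2 (NCED1 and Solyc05g052980) with the moderation refitted without undetected genes. The same 2 were called in the joint fit at its upper variance limit. The number was 7 at the lower limit and at an unadjusted p under 0.05. At a threshold of 0.01 or with a size of at least 1 it was 0. In rSBP15 over miR156-OE, 0 in the main form became 3 at the mean residual variance (7.77% of all genes) and 6 at an unadjusted p under 0.05. In the joint fit it became 6 or 7 at the upper or lower limit (14.4% or 23.2%). Of the wider list, 0 in miR156-OE over MT became 2 at an unadjusted p under 0.05. In rSBP15 over MT, 2 became 1 with all rows in the adjustment and with no moderation, 8 of 26 refitted (14.7% of all genes), 4 or 6 in the joint fit (11.1% or 19.5%), 13 unadjusted (33.3%), and 0 at 0.01 or with a size of at least 1. In rSBP15 over miR156-OE, 0 became 2 at the mean variance (7.77%), 5 or 10 in the joint fit (14.4% or 23.2%) and 11 unadjusted, all higher in rSBP15 (11.1%). Of 140 adjusted p-values of single members under alternatives, 112 stayed on the same side of 0.05, 26 moved below it and 2, both of Solyc04g071150, moved above it. In rSBP15 over MT the 6 members with the largest log fold changes each had adjusted p-values on either side of 0.05 over the alternatives. The lower variance limit is a bound and not an estimate.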
